A study of Rosa roxburghii with 15 samples.

Results

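The 5 unigenes described here are the *R. roxburghii* transcripts TRINITY_DN146463_c1_g1, TRINITY_DN143137_c2_g1 and TRINITY_DN127588_c0_g1, whose best database match is a protein named EFM, and TRINITY_DN139053_c0_g1 and TRINITY_DN149346_c2_g2, whose best match is a protein named APL. The prefix is left out from here on. They are 5 of the 10 EFM and APL entries among the 163 MYB unigenes listed by the study, and 5 of the 63727 unigenes of the assembly. They were selected on their names and with their FPKM values across the 5 tissues in view, so their levels and the differences between tissues are given as a description, with no p-value, and where they are set against thresholds the counts are a description too. The names come from the best match in peach (*Prunus persica*) for the 3 EFM unigenes, in *Prunus mume* for DN139053_c0_g1 and in mulberry (*Morus notabilis*) for DN149346_c2_g2, and whether these are orthologs was not tested.

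*Rosa roxburghii* Tratt is a rose shrub grown for its edible fruit. RNA was sequenced from 5 tissues of wild plants kept outdoors in pots at a single site, with 3 libraries per tissue and 15 in all. Leaf libraries came from mature leaves without petioles, stem libraries from new shoots, flower libraries from flowers in full blossom, young fruit libraries from fruit collected 50 days after flowering and mature fruit libraries from fruit collected after 120 days. No plant was treated or genetically altered. The harvest of leaf, stem and flower was in May, that of young fruit in July and that of mature fruit in September, which means that tissue or stage and month of harvest cannot be told apart wherever fruit enters a comparison. The labels mention 2 biological replicates of 3 plants each, whereas the study's methods give 3 biological replicates. The 3 libraries of a tissue were therefore treated as separate samples, and the spread between them may be partly technical.

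GARP proteins are a plant family of transcription factors that bind DNA through a single MYB-like domain and are often listed with the MYBs. In *Arabidopsis*, EFM (EARLY FLOWERING MYB PROTEIN) represses the florigen gene *FT* in the leaf vasculature and so delays flowering. APL (ALTERED PHLOEM DEVELOPMENT) carries a coiled coil beside the MYB-like domain, is required for phloem identity, and is also involved in the expression and transport of *FT*. The related PHL (PHR1-LIKE) proteins are relatives of PHR1, which directs the response to phosphate starvation. None of these roles has been assigned to the rose unigenes by the data analysed here.

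Primers for quantitative RT-PCR had been designed by the study for 2 of the 5 unigenes. They are shown as the sequences the study lists for these 2 unigenes, and their match to the assembled transcripts was not checked. The primers are 19 to 24 bases long, with a G+C content of 41.7% to 52.6%, and all letters are in lower case because no part of them is singled out.
DN146463_c1_g1 (EFM) sense: tgctgctgtgaacctccaa
DN146463_c1_g1 (EFM) antisense: tccttctctgctgccaatgt
DN139053_c0_g1 (APL) sense: tccttgatagccttgtcttgaatg
DN139053_c0_g1 (APL) antisense: cgaagagcaacaacgacttagt

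The unit is FPKM, the fragments of a unigene scaled to its length in kilobases and to the mapped reads of the library, so levels of different unigenes can be set beside each other per length. The sum of FPKM over all unigenes ranged from 490161 to 563597 per library. Across all unigenes, Pearson's r of log2(FPKM + 0.1) was 0.943 to 0.967 within tissues and 0.729 to 0.903 across tissues. The steps in which the lowest values fall gave each library 0.88 to 1.43 times the depth of leaf library 1. Mature fruit libraries 2 and 3 stood apart in that 2792 unigenes were above 0 in both and listed at 0 in the other 13 libraries, against 68 for mature fruit libraries 1 and 2 and 62 for libraries 1 and 3. The files name no genes outside the table of MYBs, so the labelled tissues were not checked against marker genes. In such bulk samples, fewer cells of a type and less RNA per cell cannot be told apart.

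**Figure D1:**
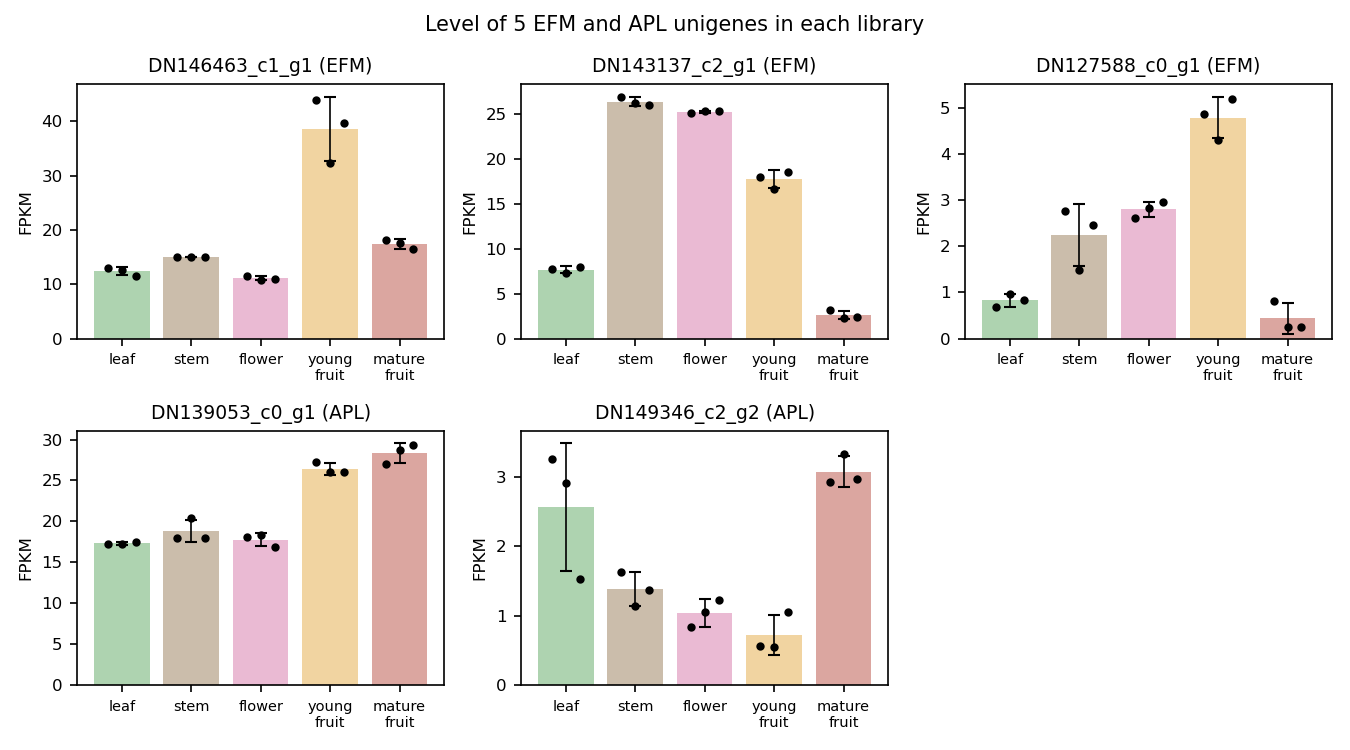
Level in FPKM (vertical axis, linear, from 0) of the 5 EFM and APL unigenes in the 5 tissues (horizontal axis). Points are the 3 libraries of a tissue, bars their mean and error bars the SD. DN146463_c1_g1 and DN127588_c0_g1 were highest in young fruit, DN143137_c2_g1 in stem and lowest in mature fruit, DN139053_c0_g1 was higher in all 6 fruit libraries than in the other 9, and DN149346_c2_g2 was highest in leaf and mature fruit, whose libraries overlapped.

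Among the EFM unigenes, DN146463_c1_g1 had its highest level in young fruit. Its 3 young fruit libraries held 44.0, 32.3 and 39.6 FPKM (mean 38.6 ± 5.88, SD, n = 3), and its 3 mature fruit libraries 18.2, 17.5 and 16.4 (mean 17.4 ± 0.892). Stem libraries lay at 15.03, 15.08 and 15.02 FPKM (mean 15.1 ± 0.0331), leaf libraries at 13.01, 12.70 and 11.58 (mean 12.4 ± 0.750) and flower libraries at 11.49, 10.78 and 10.91 (mean 11.1 ± 0.378). All 3 young fruit libraries were above, and all 3 flower libraries below, the 12 libraries of the other tissues. The order was young fruit, mature fruit, stem, leaf and flower, and no 2 neighbours in this order overlapped. On the log2(FPKM + 0.1) scale, young fruit was higher than flower by 1.78, than leaf by 1.62, than stem by 1.34 and than mature fruit by 1.14 (SE 0.095 for each, from limma). The differences among the other 4 tissues were smaller, from 0.17 between leaf and flower to 0.65 between mature fruit and flower. Young fruit thus held 3.49 times the mean level of flower. Among the 163 MYB unigenes, DN146463_c1_g1 ranked 8 by mean FPKM in young fruit and 11 in mature fruit, but 25 in stem, 26 in leaf and 36 in flower.

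DN143137_c2_g1, matched to isoform X2 of EFM, followed another course, with its highest levels in stem and flower and its lowest in mature fruit. Its stem libraries held 26.9, 26.1 and 26.0 FPKM (mean 26.3 ± 0.490, SD, n = 3) and its flower libraries 25.1, 25.3 and 25.3 (mean 25.2 ± 0.118). Young fruit libraries held 18.0, 16.6 and 18.5 FPKM (mean 17.7 ± 0.975), leaf libraries 7.77, 7.26 and 7.94 (mean 7.66 ± 0.352) and mature fruit libraries 3.13, 2.31 and 2.39 (mean 2.61 ± 0.456). The 5 tissues did not overlap, although stem and flower were separated by only 0.06 on the log2 scale (SE 0.097), less than its standard error. Mature fruit was lower than stem by 3.30 on the log2 scale, than flower by 3.24, than young fruit by 2.73 and than leaf by 1.53, and stem held 10.1 times the mean level of mature fruit. Leaf in turn was lower than stem by 1.77, than flower by 1.71 and than young fruit by 1.20. The rank of this unigene among the 163 MYB unigenes ran from 14 in flower and 15 in stem to 48 in mature fruit.

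DN127588_c0_g1 was the EFM unigene with the lowest levels. Its young fruit libraries held 4.87, 4.30 and 5.20 FPKM (mean 4.79 ± 0.454, SD, n = 3), above the other 12 libraries. Flower libraries held 2.62, 2.82 and 2.95 FPKM (mean 2.80 ± 0.170) and stem libraries 2.76, 1.49 and 2.46 (mean 2.24 ± 0.668), and these tissues overlapped. Leaf libraries, at 0.690, 0.970 and 0.835 FPKM (mean 0.832 ± 0.140), overlapped with mature fruit libraries, at 0.823, 0.241 and 0.244 (mean 0.436 ± 0.335). Mature fruit library 1 was thus more than 3 times as high as mature fruit libraries 2 and 3, the pair that also stood apart in the unigenes it shared. On the log2 scale, mature fruit was lower than young fruit by 3.36, than flower by 2.60 and than stem by 2.25 (SE 0.34), and young fruit held 10.99 times the mean level of mature fruit. With mature fruit represented by library 1 alone, it was lower than young fruit by 2.40, than flower by 1.65 and than stem by 1.30, and level with leaf. Without library 1, the mean of mature fruit was 0.242 FPKM, young fruit held 19.8 times that level, and mature fruit was lower than young fruit by 3.83 and than leaf by 1.43, against 3.36 and 0.96 with all 3.

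The 3 EFM unigenes shared a lower level in mature than in young fruit, with log2 differences from -1.14 to -3.36, and they differed in their highest or lowest tissue. Lower levels in mature fruit were the common direction, since 26.7% of all unigenes past the thresholds between mature and young fruit were higher in mature fruit. Unigenes above 0.1 FPKM in the 3 young fruit libraries alone are among those tested, and these can only be lower in mature fruit. Among unigenes of at least 1 FPKM in at least 3 libraries, 2969 were higher and 5501 lower. Without young fruit library 1, 3924 were higher and 6263 lower. Over the 15 libraries, which are 5 tissues of 3 libraries each, Pearson's r of log2(FPKM + 0.1) was 0.866 between DN127588_c0_g1 and DN143137_c2_g1, 0.404 between DN127588_c0_g1 and DN146463_c1_g1 and 0.009 between DN143137_c2_g1 and DN146463_c1_g1. These values describe the libraries and are given with no p.

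Of the APL unigenes, DN139053_c0_g1 had the higher and more even levels. Its mature fruit libraries held 27.0, 28.8 and 29.3 FPKM (mean 28.4 ± 1.21, SD, n = 3) and its young fruit libraries 27.2, 26.0 and 26.0 (mean 26.4 ± 0.710). Stem libraries held 18.0, 20.4 and 18.0 FPKM (mean 18.8 ± 1.37), flower libraries 18.0, 18.4 and 16.9 (mean 17.8 ± 0.766) and leaf libraries 17.2, 17.2 and 17.4 (mean 17.3 ± 0.127). All 6 fruit libraries were above the 9 libraries of leaf, stem and flower. The 2 fruit stages overlapped, as did stem with flower and flower with leaf. The widest difference, mature fruit against leaf, was 0.71 on the log2 scale (SE 0.062), a ratio of the means of 1.64, and no pair of tissues differed by 1 or more. Relative to the other MYBs the unigene stood highest in mature fruit, at rank 8 of 163 by mean FPKM, against 17 in young fruit and 20 to 22 in leaf, stem and flower.

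DN149346_c2_g2, the other APL unigene, was found at low levels that ran against those of the EFM unigenes in fruit. Its mature fruit libraries held 2.92, 3.33 and 2.98 FPKM (mean 3.08 ± 0.220, SD, n = 3) and its young fruit libraries 0.568, 0.551 and 1.06 (mean 0.726 ± 0.288). Leaf libraries held 3.27, 2.91 and 1.52 FPKM (mean 2.57 ± 0.922), stem libraries 1.63, 1.14 and 1.38 (mean 1.38 ± 0.243) and flower libraries 0.836, 1.06 and 1.23 (mean 1.04 ± 0.195). The leaf libraries overlapped with those of mature fruit and, through leaf library 3, with those of stem. Stem overlapped with flower and flower with young fruit. Mature fruit was higher than young fruit by 1.99 on the log2 scale, than flower by 1.49 and than stem by 1.11 (SE 0.30), and its mean was 4.24 times that of young fruit. Without leaf library 3 the highest tissue was leaf, and the log2 difference of mature fruit from leaf was -0.01 in place of 0.32. Pearson's r over the 15 libraries was 0.014 between the 2 APL unigenes, -0.864 between DN149346_c2_g2 and DN127588_c0_g1, and -0.764 between DN149346_c2_g2 and DN143137_c2_g1.

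The deposited values are scaled to the reads of each library. Scaling by median-of-ratios size factors instead moved the tissues against each other by up to 0.33 on the log2 scale, with flower the highest and leaf the lowest. On this scale the 5 unigenes kept the tissues in which they were highest. The leaf and stem libraries of DN146463_c1_g1 then overlapped, at 12.9 to 14.99 and 14.1 to 15.3, and flower was lower than leaf by 0.50 on the log2 scale in place of 0.17. DN139053_c0_g1 then had means of 27.6 in mature fruit, 26.1 in young fruit, 19.6 in leaf, 18.3 in stem and 15.9 in flower, and its fruit libraries were still above the 9 others. Its small differences of flower and stem from leaf turned from 0.04 and 0.12 to -0.29 and -0.10. Its flower libraries (15.2 to 16.6) then overlapped with neither leaf (19.4 to 19.8) nor stem (16.9 to 20.7), whereas leaf and stem overlapped. The leaf and mature fruit libraries of DN127588_c0_g1 no longer overlapped, at 0.795 to 1.09 and 0.240 to 0.733. The stem libraries of DN149346_c2_g2, at 1.16 to 1.53, then overlapped with neither leaf (1.70 to 3.76) nor flower (0.743 to 1.1).

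**Figure D2:**
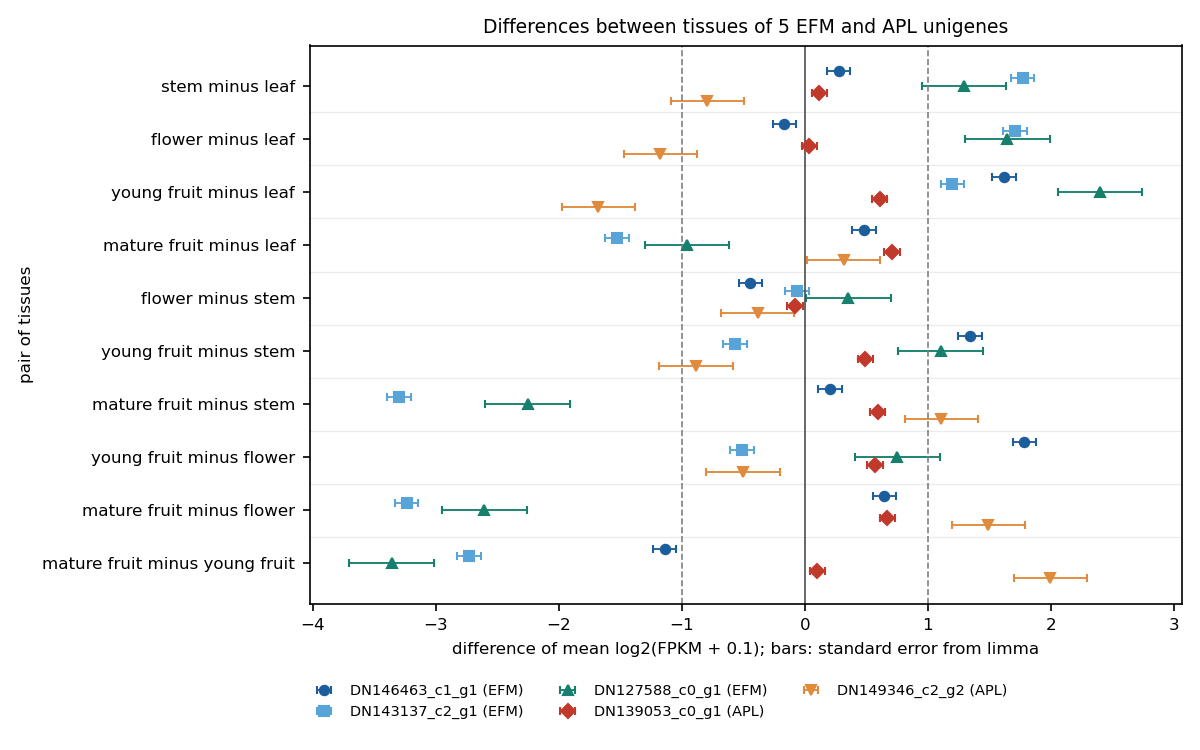
Differences of mean log2(FPKM + 0.1) (horizontal axis) of the 5 EFM and APL unigenes between the 10 pairs of tissues (vertical axis). Points are the differences, bars their standard errors from limma and dashed lines a difference of 1 in either direction. The EFM unigenes lay left of 0 in mature against young fruit, at -1.14, -2.73 and -3.36, DN149346_c2_g2 lay at 1.99, and DN139053_c0_g1 stayed between the dashed lines in all 10 pairs.

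To place these differences among those of all unigenes, the thresholds of the study's methods were applied, a log2 fold change of 1 or more in either direction with an FDR of at most 0.01 (limma, Benjamini-Hochberg within each pair of tissues over 51175 unigenes). All 5 unigenes were past the filter on low values. Of their 50 combinations with a pair of tissues, 22 lay past both thresholds (44.0%), against 30% of the combinations over all unigenes tested. At least 1 such pair was found for 4 of the 5, against 69.8% of all unigenes tested. The libraries of the tissues compared did not overlap in 41 of the 50 combinations, against 52% over all unigenes tested. Since the 5 unigenes were chosen with these values known, nothing is read from these counts. DN143137_c2_g1 lay past the thresholds in 7 pairs, DN127588_c0_g1 in 6, DN149346_c2_g2 in 5, DN146463_c1_g1 in 4 and DN139053_c0_g1 in 0.

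By pair of tissues, 4 of the 5 lay past the thresholds between mature and young fruit (30.2% of all unigenes tested). The 3 EFM unigenes were lower in mature fruit, as were 22.1% of all unigenes tested, and DN149346_c2_g2 was higher, as were 8.06%. Among unigenes of at least 1 FPKM in at least 3 libraries, 5501 of 28830 were lower and 2969 higher. The thresholds were also met by 4 of the 5 between young fruit and leaf (41.8%). Between flower and leaf 3 passed (18.8%), between mature fruit and stem 3 (29.4%) and between mature fruit and flower 3 (33.9%). Of all unigenes that passed between flower and leaf, 65.1% were higher in flower, and 48.6% with size factors. Between stem and leaf 2 passed (23.9%). A single unigene passed between young fruit and stem (27.4%) and between young fruit and flower (39%), DN146463_c1_g1 in both, and DN143137_c2_g1 alone passed between mature fruit and leaf (37%). Between flower and stem 0 of the 5 passed (19%). DN127588_c0_g1 passed between stem and leaf with a log2 difference of 1.29, a call that was lost under 16 of 24 alternative settings. DN149346_c2_g2 passed between flower and leaf with -1.17 and between mature fruit and stem with 1.11, calls that were lost under 12 and 10 of them. Both are unigenes with values near or below 3 FPKM in most libraries.

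A tissue index, tau, summarised how evenly each unigene was spread over the tissues. It is 0 for equal mean FPKM in every tissue and 1 for a unigene found in a single tissue. It was 0.292 for DN139053_c0_g1, 0.495 for DN143137_c2_g1, 0.536 for DN149346_c2_g2, 0.638 for DN146463_c1_g1 and 0.671 for DN127588_c0_g1. All 5 were below the medians of 0.697 over the 142 MYB unigenes that passed the filter and 0.687 over all unigenes tested, DN127588_c0_g1 only slightly. These medians were not matched to the levels of the 5. Of the 51175 unigenes tested, 28830 reached 1 FPKM in at least 3 libraries. DN139053_c0_g1 ranked 136 of these 142 from the highest index, and 8.4% of all unigenes tested had a lower one. Each of the 5 transcripts was above 0 in all 15 libraries.

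The make-up of the EFM transcripts was then followed by the share of each of the 4 EFM unigenes in their summed FPKM, a ratio within a library that no scaling between libraries alters. In leaf the largest share, 50.5% ± 0.464 (SD, n = 3), belonged to the fourth EFM unigene, DN145164_c1_g1. In stem and flower it belonged to DN143137_c2_g1, with 51.1% ± 0.698 and 55.2% ± 0.305. In young and mature fruit DN146463_c1_g1 held 58.7% ± 2.76 and 73.6% ± 3.26. The leading EFM unigene of a tissue was the same in all 3 of its libraries, with a lowest share of 49.99% in any of them, and no other EFM unigene exceeded 30.3% in any library. DN127588_c0_g1 held between 1.77% and 7.31% of the sum in each tissue, and 1.08% in mature fruit without library 1 in place of 1.77%. The summed level was 65.6 ± 7.12 FPKM in young fruit, 51.5 ± 1.02 in stem, 45.7 ± 0.156 in flower, 42.3 ± 0.847 in leaf and 23.7 ± 2.04 in mature fruit. Unlike the shares, these sums depend on the scaling between libraries. Size factors lowered flower against leaf by 0.33 on the log2 scale, so the order of these 2 tissues depends on the scaling.

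For the 6 APL unigenes, DN139053_c0_g1 held the largest share in leaf (48.2% ± 4.26, SD, n = 3), stem (43.2% ± 3.61) and mature fruit (59.5% ± 2.44). In flower DN142101_c1_g2 held 52.4% ± 0.925, and DN139053_c0_g1 followed with 32.9% ± 0.689. In young fruit DN132443_c0_g1 held 46.6% ± 0.510 and DN139053_c0_g1 41.6% ± 2.34, and the libraries of the 2 did not overlap. DN149346_c2_g2 held 7.01% ± 2.09 in leaf and 6.45% ± 0.452 in mature fruit, and between 1.13% and 3.17% in the other tissues. The summed APL level was 63.7 ± 3.32 FPKM in young fruit, 54.0 ± 1.22 in flower, 47.7 ± 0.0936 in mature fruit, 43.5 ± 0.431 in stem and 36.1 ± 2.85 in leaf. On the deposited scale both sums were thus highest in young fruit, and mature fruit was the lowest tissue of the EFM sum but not of the APL sum.

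**Figure D3:**
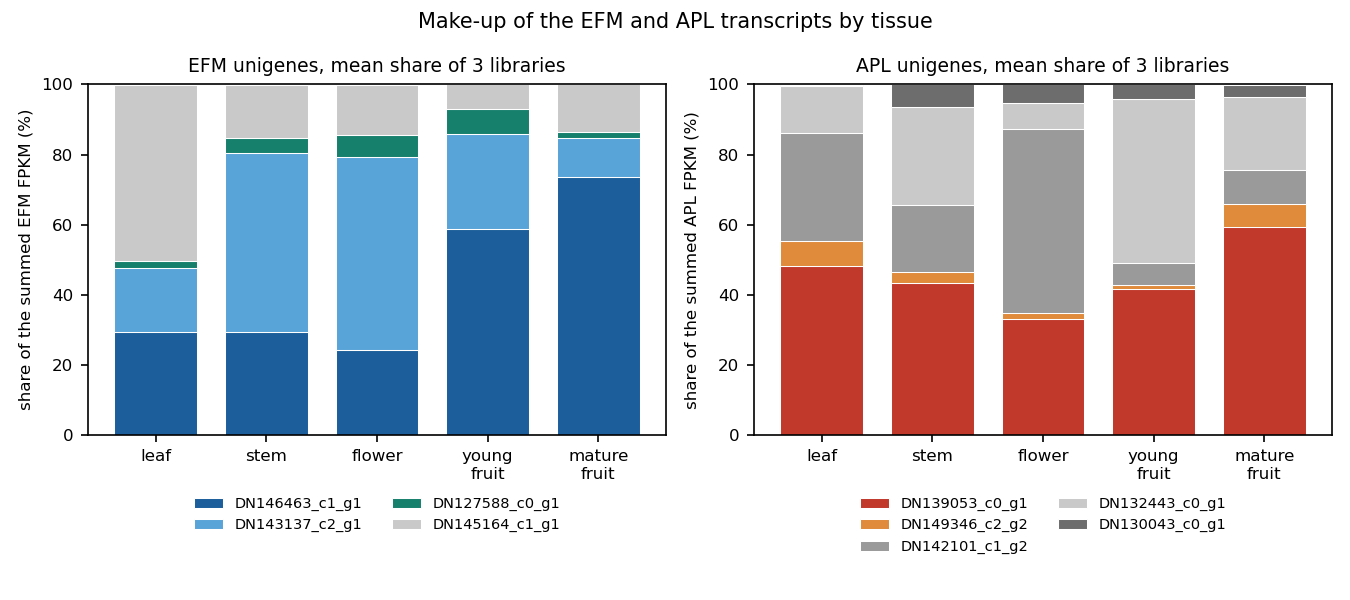
Share in percent (vertical axis) of each EFM unigene in the summed FPKM of the 4 EFM unigenes (left) and of each APL unigene in the sum of the 6 APL unigenes (right), by tissue (horizontal axis). Segments are means of 3 libraries. Grey segments are unigenes other than the 5 described, and DN142101_c1_g3, listed at 0 in every library, has no segment. DN146463_c1_g1 took 58.7% and 73.6% of the EFM sum in young and mature fruit, and DN139053_c0_g1 59.5% of the APL sum in mature fruit.

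The remaining EFM, APL and PHL unigenes in the table of MYBs number 9, and were tested with limma on log2(FPKM + 0.1) with adjustment over all unigenes tested. DN142101_c1_g3, matched to APL, was listed at 0 in all 15 libraries and was not tested. Of the other 8, 7 passed in at least 1 pair of tissues, against 69.8% of all unigenes tested. Among unigenes of at least 1 FPKM in at least 3 libraries, 21582 of 28830 did. Of the 80 combinations of the 8 with a pair, 38 passed (47.5%), against the 30% over all unigenes. The PHL7 unigene DN143480_c3_g1 passed in none, its level being 11.9 ± 0.350 FPKM in young fruit, 9.78 ± 0.144 in mature fruit and 7.79 to 8.08 in the other tissues. Its widest difference, young fruit against stem, was 0.60 on the log2 scale (limma adjusted p = 9.07e-06), under the limit of 1. The PHL6 unigene DN146474_c3_g1 passed only between young fruit and stem (6.51 ± 1.07 against 13.1 ± 1.26 FPKM, log2 difference -1.01, limma adjusted p = 7.99e-06), close to the limit of 1. Without stem library 2 or young fruit library 2 its log2 difference was -0.94 or -0.87 and it no longer passed. Nor did it pass with size factors (-0.98) or with a pseudocount of 1 (-0.92).

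DN145164_c1_g1, the fourth EFM unigene, was higher in leaf than in every other tissue. Its leaf libraries held 21.5, 21.7 and 21.0 FPKM (mean 21.4 ± 0.358, SD, n = 3), its stem libraries 7.83, 7.78 and 8.10 (mean 7.90 ± 0.171) and its flower libraries 6.48, 6.64 and 6.68 (mean 6.60 ± 0.109). Young fruit held 4.47 ± 0.114 and mature fruit 3.23 ± 0.512 FPKM. Stem was lower than leaf by 1.42 on the log2 scale (SE 0.093, limma adjusted p = 5.05e-08) and mature fruit lower by 2.70 (adjusted p = 4.51e-11). Leaf was the tissue in which DN143137_c2_g1 and DN127588_c0_g1 had their second lowest mean levels.

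The tested APL unigenes outside the 5 had their highest levels in different tissues. DN132443_c0_g1 held 29.7 ± 1.80 FPKM in young fruit and 12.1 ± 2.08 in stem, followed by mature fruit at 9.93 ± 1.82, leaf at 4.86 ± 0.834 and flower at 4.08 ± 0.246 (young fruit against stem, log2 1.30, limma adjusted p = 1.22e-05). DN142101_c1_g2 was higher in flower, at 28.3 ± 0.720 FPKM, than in leaf at 11.2 ± 1.99 (log2 1.34, adjusted p = 6.37e-05), and it was lowest in young and mature fruit, at 4.14 ± 1.15 and 4.56 ± 0.856. DN130043_c0_g1 was lower in leaf, at 0.117 ± 0.134 FPKM, than in young fruit at 2.70 ± 0.358 (log2 difference 3.85, adjusted p = 2.75e-07), with stem and flower near young fruit at 2.85 ± 0.419 and 2.78 ± 0.380. Its leaf level lies at the filter limit of 0.1 FPKM, where the log2 difference depends on the pseudocount.

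Of the PHL unigenes, named after regulators of the phosphate starvation response, DN129876_c0_g1 (PHL8) and DN135152_c0_g1 (PHL5) were highest in young fruit and lowest in flower, as DN146463_c1_g1 was. The PHL8 unigene held 13.2 ± 1.03 FPKM in young fruit and 2.27 ± 0.290 in flower (log2 2.50, limma adjusted p = 1.46e-09). The PHL5 unigene held 2.05 ± 0.385 in young fruit and 0.126 ± 0.0658 in flower (log2 3.28, adjusted p = 7.33e-07), its flower level being close to the filter limit. Between mature and young fruit the PHL8 unigene was lower by 1.36 in mature fruit (adjusted p = 5.22e-07), whereas the PHL5 unigene, at -0.81 (adjusted p = 0.0412), did not pass. Of the 8 unigenes, 7 had a tissue whose 3 libraries were all above the other 12, as 3 of the 5 described here did, against 48.4% of all unigenes tested. A tissue whose 3 libraries were all below the other 12 was found for 6 of the 8 and for 2 of the 5, against 23.9%. Of the 51175 unigenes tested, 28830 reached 1 FPKM in at least 3 libraries. These shares and that of the combinations above were therefore not matched to the levels of the 8.

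**Figure D4:**
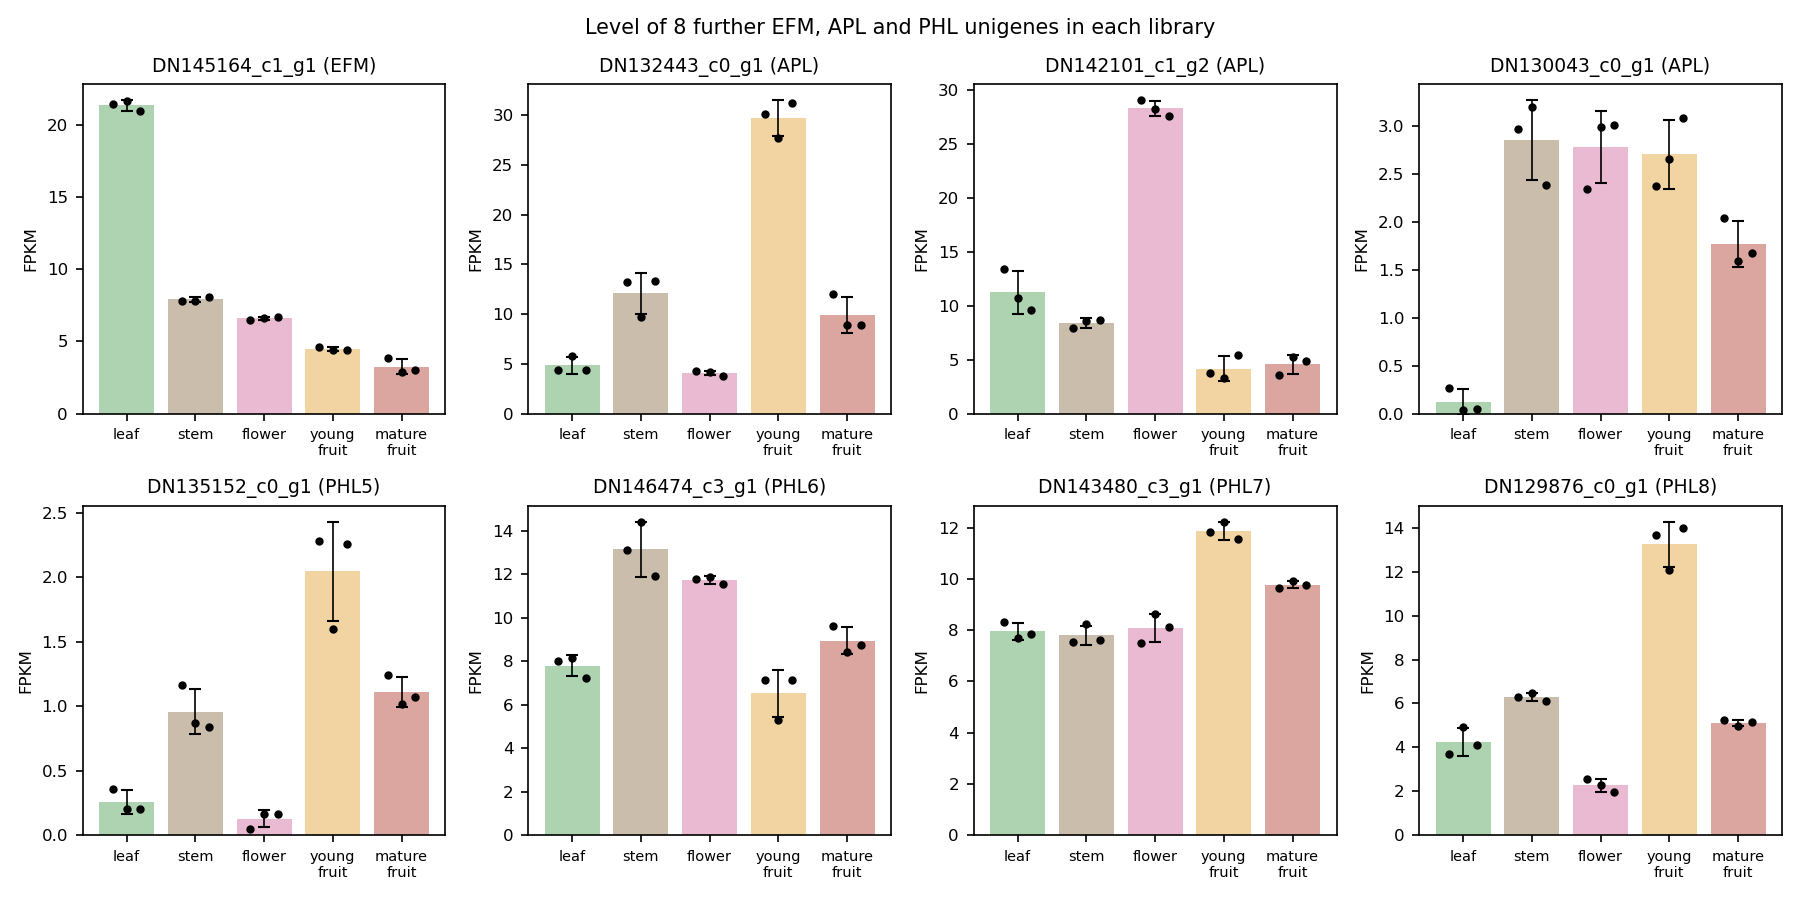
Level in FPKM (vertical axis, linear, from 0) of the 8 further EFM, APL and PHL unigenes in the 5 tissues (horizontal axis). Points are the 3 libraries of a tissue, bars their mean and error bars the SD. The EFM unigene DN145164_c1_g1 was highest in leaf (21.4 FPKM), the APL unigene DN142101_c1_g2 in flower (28.3 FPKM), and the APL unigene DN132443_c0_g1 and the PHL8 unigene DN129876_c0_g1 in young fruit (29.7 and 13.2 FPKM).

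The MYB unigenes with the most similar patterns were sought by Pearson's r of log2(FPKM + 0.1) over the 15 libraries, among the 142 that passed the filter. Since the points fall into 5 tissues of 3 libraries, a high r can rest on a single tissue, and no p is given. For DN146463_c1_g1 the nearest were DN144669_c3_g5 (MYB308-like, r = 0.95), the APL unigene DN132443_c0_g1 (0.933) and the PHL8 unigene DN129876_c0_g1 (0.913). With a pseudocount of 0.01 DN132443_c0_g1 came first, and the r with DN144669_c3_g5 was 0.88. The mean of DN144669_c3_g5 in flower, 0.0591 FPKM, lay below the filter limit of 0.1. Such values were common for this pattern, since 4191 of the other 51174 unigenes tested (8.19%) reached an r of at least 0.9 with DN146463_c1_g1.

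For DN143137_c2_g1 the nearest MYBs were DN146459_c2_g7 (MYB108, r = 0.970), DN144669_c3_g3 (MYB330, 0.934) and DN70434_c0_g1 (a MYB-like protein Q, 0.90), and 662 unigenes reached 0.9. MYB108 is known in *Arabidopsis* for its part in stamen maturation. DN127588_c0_g1 was nearest to the same MYB108 unigene (0.920), to DN141656_c0_g1 (MYB21, known in *Arabidopsis* from stamen and petal growth, 0.917) and to DN143137_c2_g1 itself (0.866), and 123 unigenes reached 0.9. The first 2 of these exchanged places with a pseudocount of 1 and when leaf library 2 or 3 or mature fruit library 2 or 3 was left out. The MYB21 unigene had a mean of 3.04 FPKM in young fruit and 0.990 in flower. In leaf and mature fruit its means, 0.0309 and 0.0533, lay below the filter limit of 0.1 FPKM. DN70434_c0_g1 was listed at 0 in mature fruit. Their r values therefore rest in part on values near the floor.

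DN139053_c0_g1 was nearest to DN142862_c0_g1 (MYB4, known in *Arabidopsis* as a repressor of phenylpropanoid genes, r = 0.975), DN144022_c3_g4 (MYB308, 0.930) and DN144339_c1_g4 (MYB6-like, 0.920), and 1238 unigenes reached 0.9. The 2 patterns differed in size. The mean level of DN142862_c0_g1 ran from 0.315 FPKM in flower to 84.3 in mature fruit, and that of DN139053_c0_g1 from 17.3 to 28.4. DN149346_c2_g2 had no close neighbour among the MYBs. Its highest r was 0.709, with DN145863_c0_g1 (a MYB-related protein 1-like), followed by 0.510 with DN109626_c0_g1 (MYB10) and 0.446 with DN147282_c0_g1 (GAMYB), and 4 unigenes of all those tested reached 0.9.

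**Figure D5:**
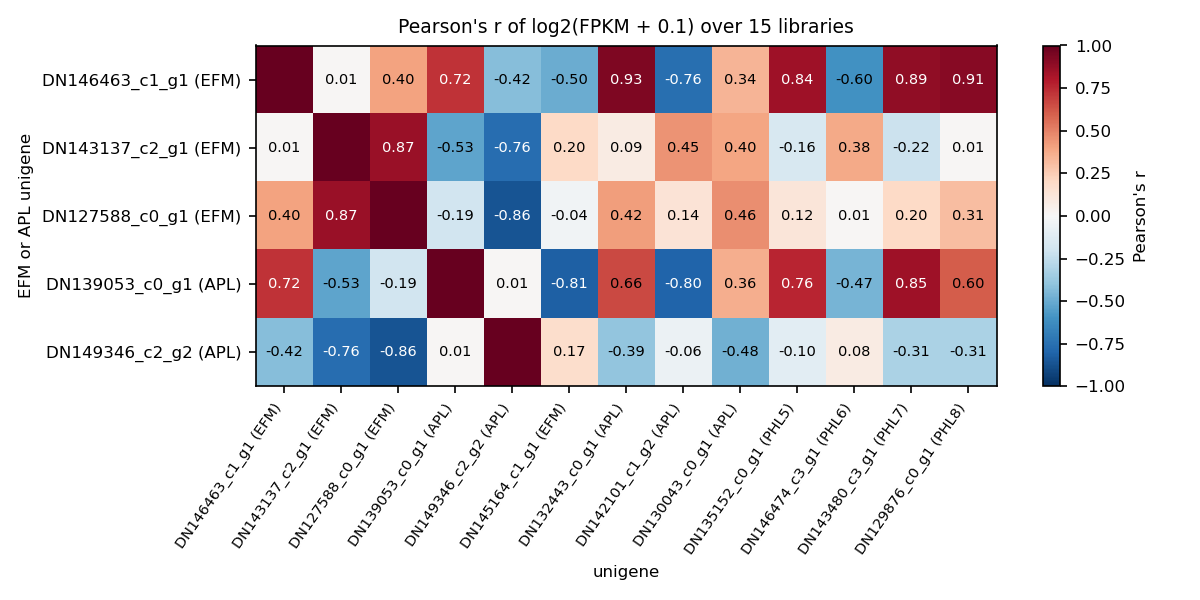
Pearson's r of log2(FPKM + 0.1) over 15 libraries between each of the 5 EFM and APL unigenes (vertical axis) and the 13 EFM, APL and PHL unigenes tested (horizontal axis), from -1 (blue) to 1 (red). DN146463_c1_g1 reached 0.933 with the APL unigene DN132443_c0_g1 and 0.913 with the PHL8 unigene DN129876_c0_g1, and DN149346_c2_g2 lay at -0.864 with DN127588_c0_g1.

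In Trinity names the DN number and the number after c mark the cluster of reads from which unigenes were assembled, and unigenes of a cluster may share reads. DN139053_c0_g1 and DN127588_c0_g1 were the only unigenes with their DN numbers. DN146463_c1_g1 shared its DN number, but not its cluster, with 5 unigenes, and DN143137_c2_g1 with 6. The unigene of the highest mean level beside each was DN146463_c2_g1, with a mean of 25.5 FPKM over the 15 libraries and an r of 0.133 with DN146463_c1_g1, and DN143137_c3_g1, with a mean of 22.5 FPKM and an r of 0.418 with DN143137_c2_g1. The files do not pair these neighbours with a gene name. DN149346_c2_g2 shared its DN number with 6 unigenes, and 2 of them came from the same cluster, with mean levels of 19.3 and 13.8 FPKM and r values of -0.157 and 0.164. Its own levels, at most 3.33 FPKM, were low beside theirs, and how reads were divided among the 3 was not tested. Some unigenes with these DN numbers, from other clusters, had patterns closer to those described. The highest r was 0.949 with DN146463_c1_g1, 0.887 with DN143137_c2_g1 and 0.706 with DN149346_c2_g2. The mean levels of these neighbours were 0.034, 4.98 and 4.37 FPKM. Whether they are parts of the same transcripts was not tested.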

How the data were processed

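The tissue named in the labels gave the groups of the 15 RNA-seq libraries. The authors assembled the reads with Trinity, mapped them with Bowtie2, used RSEM for abundance, and deposited FPKM values for 63727 unigenes, and the submitters' processing notes also name Trimmomatic (versions not given in the sources used here). The labels name a TruSeq kit and the study's methods strand-specific NEBNext libraries. FPKM carries no read counts, so counting errors are unknown and a 0 means only that a unigene is listed at 0. Reads that fit several unigenes can shift values between them.

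Values were fitted as log2(FPKM + 0.1) in R 4.3.3 by limma 3.58.1. The model had a mean for each tissue, all 15 libraries, a prior variance that follows the level, and p-values adjusted after Benjamini-Hochberg within each of the 10 pairs. The fit kept the 51175 unigenes with more than 0.1 FPKM in 3 or more libraries. To pass, a unigene needed a log2 fold change of 1 or more in either direction and an adjusted p of at most 0.01. These p-values reflect only how far libraries of a tissue spread. Fold changes on this scale understate those of low values. Other steps used pandas 2.3.3 and numpy 2.4.6 under Python 3.11.15, and matplotlib 3.10.9 for figures.

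The 5 unigenes, the lists and the rule for names were chosen with earlier results of these data known. Named are the 5 unigenes, all other EFM, APL and PHL entries of the study's table of MYBs, up to 3 MYBs nearest to each of the 5, and at most 2 unigenes that share an assembly component with them. Alternatives were other pseudocounts, other filters, median-of-ratios size factors, no trend of the variance, a replicate block, fits of the 6 libraries of a pair, and leaving out libraries. The study reports nearly the same trends in qRT-PCR and RNA-seq for the MYBs it selected. Its qRT-PCR values were not used here.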

Additional observations from a re-analysis of the deposited data

How the results depend on the processing

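With a pseudocount of 1, 20759 of all unigenes passed in 1 pair of tissues or more, and 21582 did with a filter of at least 1 FPKM in at least 3 libraries, against 35695, and the counts per pair of tissues then ran from 5465 to 11948 and from 6802 to 14107, against 9605 to 21397. Fewer low unigenes can pass under either setting. Without young fruit library 1, 2 or 3 the count between young fruit and stem was 8707, 8556 or 8895, against 14036. That between mature and young fruit was then 10187, 10035 or 10441, against 15443, and the counts of young fruit against leaf and flower fell too. A unigene above 0.1 FPKM only in the 3 young fruit libraries fails the filter once 1 is left out. The unigenes tested were then 46104, 46116 or 46083, against 51175. Calls higher in young fruit than stem were then 3985, 4049 or 4039, against 8893, and lower ones 4722, 4507 or 4856, against 5143. Leaving out 1 library at a time, 30640 to 35154 of all unigenes passed in 1 pair of tissues or more. Of the 50 combinations of the 5 EFM and APL unigenes, 19 to 23 lay past the thresholds (22 with all libraries). Of the 8 other unigenes, 6 or 7 passed. Across these settings 4 or 5 of the 5 kept their highest tissue (all but DN149346_c2_g2 without leaf library 3) and 4 or 5 kept their nearest MYB. No difference that passed turned its direction under any alternative run. All changed calls of the 5 were in DN127588_c0_g1 and DN149346_c2_g2. DN127588_c0_g1 lost its call between stem and leaf without any 1 leaf or flower library, without stem library 1 or 3, without young fruit library 1 or 3, and with either other pseudocount, no filter, size factors or the 6 libraries of the pair. Without mature fruit library 1 it gained calls of mature fruit against leaf (-1.43) and of young fruit against stem (1.10). Size factors gave it the same calls (-1.16 and 1.13), the latter was also gained without mature fruit libraries 2 and 3, and its call between mature fruit and stem (-2.25) was lost with the 6 libraries of the pair. DN149346_c2_g2 lost its call between flower and leaf without leaf library 1 or 2, stem library 3, any 1 flower library, or mature fruit library 2 or 3, and its call between mature fruit and stem without any 1 stem or mature fruit library or flower library 2. It gained a call between stem and leaf (-1.12) without leaf library 3 and between young fruit and stem (-1.16) without young fruit library 3. Without mature fruit libraries 2 and 3 it also lost its calls between mature fruit and flower (1.42, against 1.49), between mature fruit and stem and between flower and leaf. With the 6 libraries of the pair it lost those between young fruit and leaf (-1.68) and between flower and leaf, and with a pseudocount of 1 those between flower and leaf (-0.78) and between mature fruit and stem (0.78). Apart from the construction named for the low unigenes and for the filter without a young fruit library, the cause was not tested.

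The replicate numbers were not treated as pairs in the main fit. The deviations of same-numbered libraries from their tissue means correlated at -0.042 to 0.061 over 30 pairs. These values cannot tell whether same-numbered libraries came from the same plants, since a plant effect small beside the spread of libraries would give similar ones. With the replicate number as a block, 35372 of all unigenes, 19 of the 50 combinations and 7 of the 8 other unigenes passed. The 3 calls lost under the block were those of DN127588_c0_g1 between stem and leaf and of DN149346_c2_g2 between flower and leaf and between mature fruit and stem. The highest tissue stayed the same for all 5 under the block.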
